A study of Mus musculus with 6 samples.

Results

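Thalamic relay nuclei spots are the spots of a coronal brain section in which transcripts typical of the sensory relay nuclei of the thalamus were highest. Spots with at least 500 unique molecular identifiers (UMIs, each standing for 1 captured molecule) were kept, and each spot was scored by the sum of the natural log of 1 plus UMIs per 10000 over Prkcd, Tnnt1, Plekhg1, Synpo2 and Rora. The 120 spots with the highest score in each of 6 sections were selected on this score, which gave 720 of the 16741 spots kept and of 16743 in all. They are called relay spots here, and the remaining 16021 spots are called other spots. Because these 5 genes chose the spots, their levels and every difference between relay spots and other spots are descriptions with no test.

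The sections came from male mice of the inbred C57BL/6J strain, with 2 brains per age, and no other genotype or treatment is given in the labels. Young mice were 6 months old, middle mice 18 months and old mice 21 months. Each group held 2 sections, written as young 1, young 2 and so on. A spot collects transcripts from all cells lying over it, so relay spots are a mixture of neurons, glia and vessels.

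The thalamic relay nuclei pass sensory and motor signals to the cerebral cortex. Their projection neurons release glutamate, fire either single spikes or bursts that depend on low-threshold calcium channels, and receive inhibition mainly from the reticular thalamic nucleus. In rodents most of these nuclei hold few inhibitory interneurons. The transcription factors Tcf7l2, Lef1, Shox2 and Gbx2 mark developing and adult thalamic neurons, and Prkcd, which encodes protein kinase C delta, is a widely used marker of sensory relay nuclei.

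Relay spots held between 2152301 UMIs in old 1 and 2894438 UMIs in young 1. Their median UMIs per spot were 23563 in young 1, 21456 in young 2, 20394 in middle 1, 21346 in middle 2, 17461 in old 1 and 17999 in old 2. In each section this was below the median of the other spots, at 0.767 to 0.874 of it. Values below are CPM, the UMIs of a gene per 1000000 UMIs of the summed spots. Replicates of a group differed by more than counting error, with a chi-square per degree of freedom over genes of 10.0 in young, 3.20 in middle and 3.47 in old.

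Young 1 stood apart from the other sections in how well the 5 genes marked its relay spots. Its median member score was 6.46, and the other medians were 9.74 in young 2, 8.43 in middle 1, 8.90 in middle 2, 8.39 in old 1 and 9.26 in old 2. Spots with a score of at least 7 numbered 35 in young 1, 317 in young 2, 194 in middle 1, 190 in middle 2, 144 in old 1 and 207 in old 2. Young 1 was therefore the only section of the 6 that did not hold 120 such spots. The 120th spot scored 5.414 and the 121st 5.412 in young 1, and the same pair was 9.151 and 9.144 in young 2, 7.871 and 7.871 in middle 1, 8.032 and 8.007 in middle 2, 7.345 and 7.343 in old 1, and 8.482 and 8.444 in old 2. The scores on both sides of the limit were close in every section, so membership near it was a matter of rank.

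Prkcd was detected at 903 CPM in young 1, 2385 in young 2, 1857 in middle 1, 2162 in middle 2, 1696 in old 1 and 2265 in old 2. Young 1 was lowest and young 2 highest, and the range of the young pair enclosed the other 4 sections. Tnnt1, which encodes slow skeletal troponin T, ran from 121 CPM in young 1 to 589 CPM in young 2, with 262 and 367 in middle and 281 and 543 in old. Rora, a nuclear receptor, ran from 458 CPM in young 1 to 670 CPM in young 2, with 605 and 613 in middle and 570 and 578 in old. Plekhg1 lay between 259 and 337 CPM and Synpo2 between 183 and 297 CPM, again with young 1 lowest. For each of the 5 genes the young pair overlapped the other groups.

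**Figure D1:**
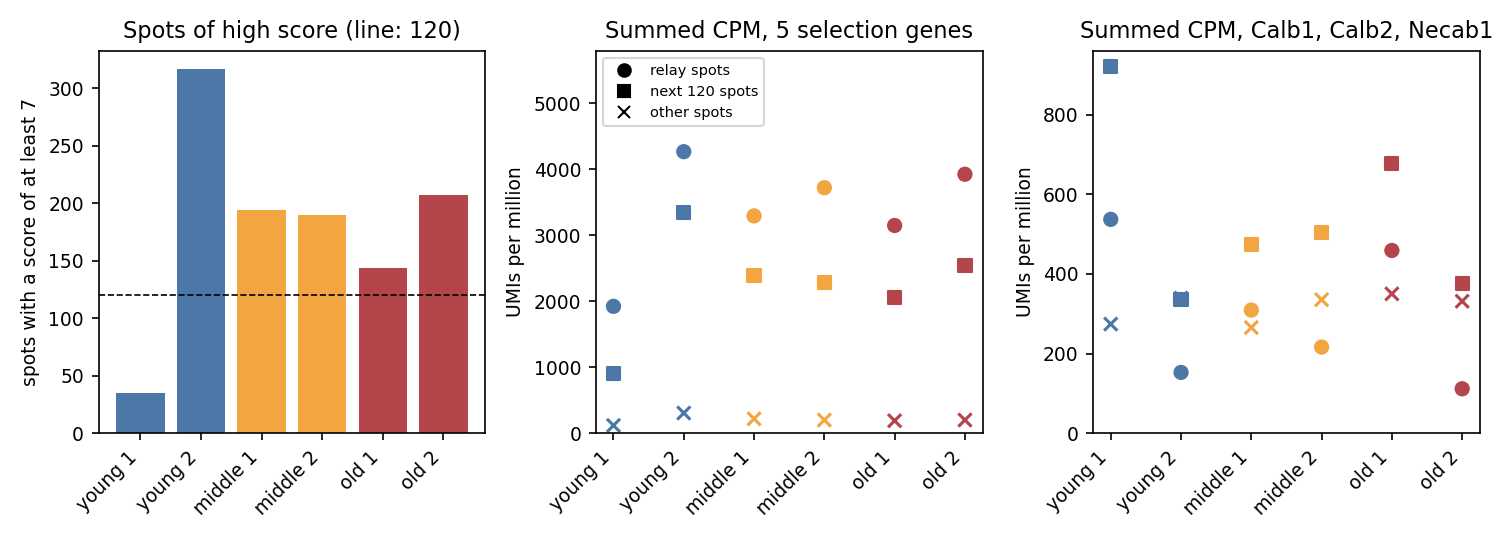
Selection of relay spots by section. Left, bars give the number of spots with a score of at least 7 and the dashed line stands at 120; young 1 has 35. Middle and right, points give CPM summed over the 5 selection genes and over the midline genes Calb1, Calb2 and Necab1, for relay spots (circles), the 120 spots next in rank (squares) and the other spots of the section (crosses); colour gives the age group.

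Genes that had no part in the choice described the same territory. Summed over 10 further thalamic genes (Slc17a6, Tcf7l2, Lef1, Ntng1, Zic1, Zic4, Rgs16, Ramp3, Shox2 and Gbx2), relay spots held 2598 CPM in young 1, 2929 in young 2, 2917 in middle 1, 2759 in middle 2, 2875 in old 1 and 2563 in old 2. The other spots held 259 to 451 CPM, so relay spots of every section were far above them and young 1 was not the lowest here. The 120 spots next in rank held 2280 to 2918 CPM, close to the relay spots themselves. When spots were ranked on Slc17a6, Tcf7l2, Lef1, Ntng1 and Ramp3 in place of the 5 genes, the highest 120 shared 72 spots with the relay spots in young 1, 30 in young 2, 55 in middle 1, 45 in middle 2, 49 in old 1 and 43 in old 2. Relay spots therefore carried thalamic transcripts beyond the 5 genes, and they are a sample of a larger thalamic territory. Whether the 10 further genes tell relay nuclei from other thalamic nuclei was not tested.

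Genes outside the selection with a mean of at least 50 CPM in relay spots were ordered by their lowest ratio of relay to other spots over the 6 sections. Abhd12b came first, with a median over sections of 40.9 and a range of 19.8 to 54.3. Rab37, a small GTPase of vesicle traffic, was next in this order with a median ratio of 13.9, and Patj, a scaffold of tight junctions, had 12.1. The homeobox gene Shox2 had a median ratio of 13.5, Rgs16, a regulator of G protein signalling, 11.5, Lef1, a transcription factor of Wnt signalling, 10.8, and Ramp3, a receptor activity modifying protein, 9.58. Ntng1, the axon guidance ligand netrin G1, reached 9.42 and Tcf7l2, a transcription factor of the same family as Lef1, 7.25.

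Genes of relay cell physiology divided. Hcn4, a pacemaker channel, had a median ratio of 8.19, Cacna1g, a T-type calcium channel of burst firing, 4.11, and Hcn2 2.28. The other T-type channels were low, with 0.118 for Cacna1h and 0.102 for Cacna1i. Among receptors, the metabotropic glutamate receptor Grm4 had a ratio of 4.88, and the subunits Gabra4 and Gabrd, which form extrasynaptic GABA-A receptors, had 4.93 and 3.79. The AMPA receptor subunits Gria1 and Gria2 were below 1, at 0.343 and 0.322. Nefh, the neurofilament heavy chain of large axons, had a ratio of 4.77, and Cplx1 and Cplx2, 2 complexins of the presynaptic release machinery, had 2.67 and 0.0479.

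Lowest against other spots were Penk, an opioid precursor of striatal neurons, with a ratio of 0.0193, Nrgn, a postsynaptic calmodulin-binding protein of forebrain neurons, with 0.0197, and Sst, the somatostatin precursor, with 0.0387. Gad1, the enzyme of GABA synthesis, had a ratio of 0.0824. Low levels of these genes were seen in each of the 6 sections.

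**Figure D2:**
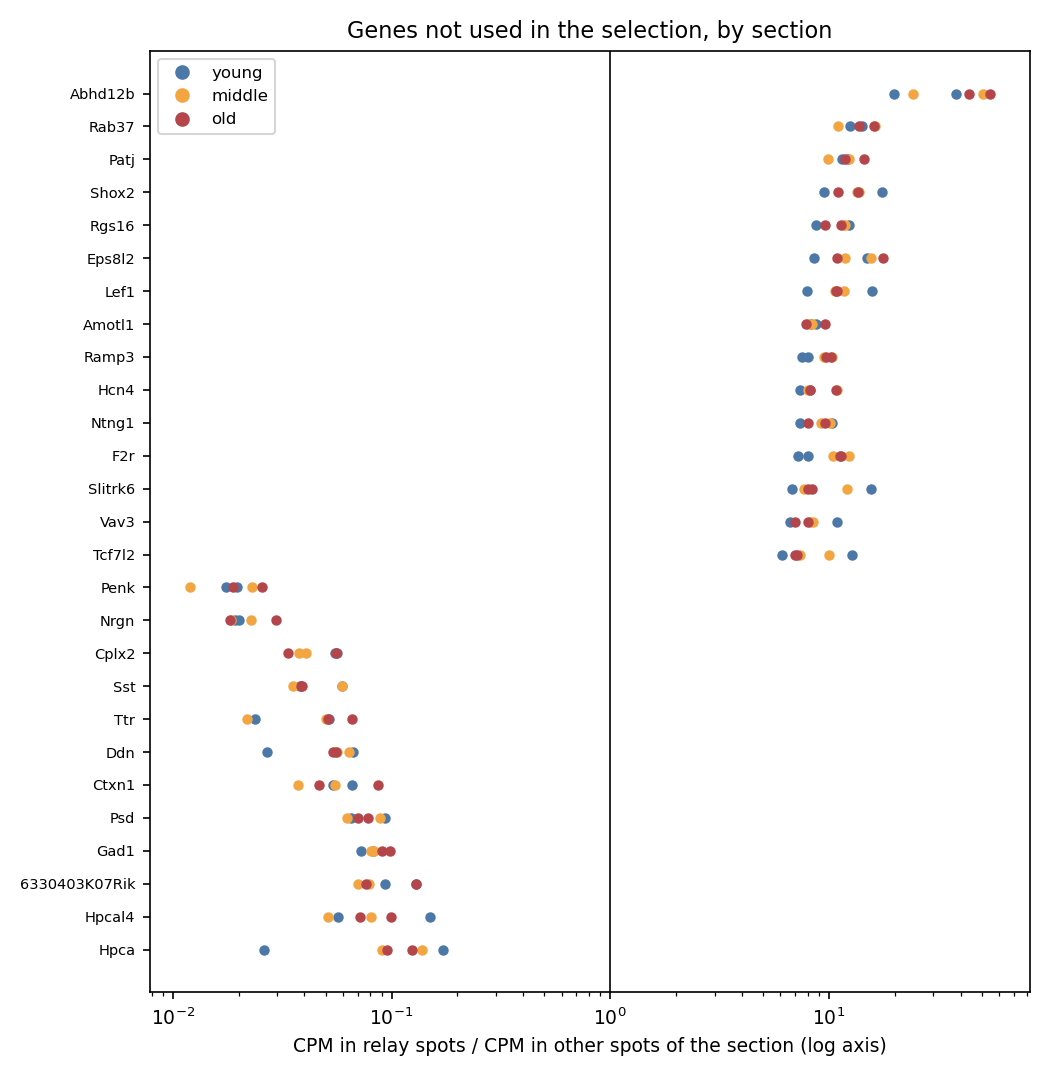
Ratio of CPM in relay spots to CPM in the other spots of the same section, on a log axis, for the leading genes not used in the selection (the first 15 of those higher in relay spots, and those lower); each point is a section and colour gives the age group. Abhd12b has the largest ratios, 19.8 to 54.3, and Penk the smallest, 0.0120 to 0.0256.

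Markers of neighbouring tissue differed in how far they entered relay spots. Gpr151, of the habenula, had a UMI in 0.833% to 4.17% of relay spots, and Neurod6, of cortical projection neurons, in 0% to 2.50%. Genes of GABAergic neurons summed to 311 to 652 CPM, below the 1093 to 1415 CPM of other spots. Of these, Gad1, Gad2, Slc32a1, Six3, Meis2 and Sst were found in a smaller share of relay than of other spots. Pvalb went the other way in every section, with a median per spot of 132 to 522 CPM in relay spots and 60.7 to 100.2 CPM in other spots. Midline thalamic genes (Calb1, Calb2 and Necab1) summed to 537 CPM in young 1, 153 in young 2, 309 in middle 1, 216 in middle 2, 459 in old 1 and 112 in old 2. Other spots held 274, 339, 265, 335, 350 and 332 CPM of them in the same order. Relay spots were above other spots in young 1, middle 1 and old 1, and below them in young 2, middle 2 and old 2. In relay spots the midline genes were highest in young 1 and old 1 and varied more within each age group than between groups. Genes of oligodendrocytes summed to 6687 to 8181 CPM, beside 6587 to 7701 CPM in other spots. Their median per spot was higher in relay spots of every section, at 6242 to 7768 CPM beside 3909 to 4616 CPM. Genes of astrocytes summed to 1305 to 1602 CPM, beside 1592 to 1767 CPM in other spots. They were lower in relay spots of every section except young 1. Hypothalamic genes in the other spots summed to 132 CPM in young 1 and 154 CPM in old 1, and to 399 to 1395 CPM in the other 4 sections. Pmch, a hypothalamic peptide precursor, had a UMI in no relay spot of young 1 or old 1 (0 of 120 in each, which by counting error alone allows a share of up to 2.50%) and in 46.7% to 75.8% of relay spots elsewhere. In other spots its share was 1.83% and 1.51% in young 1 and old 1, respectively, and 24.6% to 49.0% elsewhere. The part of these differences in the age comparisons was not tested.

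Age was compared on UMIs summed over the 120 relay spots of a section, with the section as the replicate. A gene was called at an adjusted p under 0.05, from edgeR's quasi-likelihood test with Benjamini-Hochberg adjustment over 11614 genes, and CPM from here on include TMM normalization factors. With 2 sections per group the model had 3 residual degrees of freedom. In sums over mixed spots, fewer cells of a type and less RNA per cell cannot be told apart.

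Between young and old mice, 6 genes changed in relay spots. Hspa1a, Hspa1b and Sgk1 were lower in old mice, and Gfap, C1qb and AC149090.1 were higher. These are 0.0517% of the genes tested, with 0.0258% in each direction, and 520 genes had an unadjusted p under 0.05. DESeq2 also called 6, of which 5 were the same. No gene of thalamic identity, ion channels, synapses or myelin was among the genes called by edgeR. At a share of 0.0517% a short gene list would mostly hold 0 calls. A count of 0 in the lists below therefore says little about their genes.

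Hspa1a and Hspa1b, which encode stress-inducible heat shock proteins and lie beside each other on chromosome 17 (chr17:34969190-34972156 and chr17:34956436-34959238 in GENCODE M21, GRCm38, minus strand), had the largest falls. Hspa1a was at 55.2 CPM in young 1, 49.3 in young 2, 8.58 in middle 1, 13.2 in middle 2, 8.10 in old 1 and 3.95 in old 2. Both young sections were far above the other 4. From young to old it fell by 3.11 on the log2 scale (SE 0.29, edgeR adjusted p = 0.00017). Hspa1b was at 46.0 and 35.7 CPM in the young sections, 4.49 and 6.97 in middle and 5.40 and 3.51 in the old sections. It fell by 3.19 (SE 0.30, edgeR adjusted p = 0.00017), and its values in the middle and old sections overlapped. These falls rest on 18 and 9 UMIs of Hspa1a and 12 and 8 UMIs of Hspa1b in the relay spots of old 1 and old 2. Without young 1 the log2 changes were -3.02 and -2.99, and both stayed called. The Hspa1a call was lost when 240 spots per section were taken (adjusted p = 0.176).

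The bases before both genes are shown because the pair fell together. They are the 250 bases before each annotated start on the minus strand, from RefSeq on GRCm38.p6, at chr17:34972157-34972406 for Hspa1a and chr17:34959239-34959488 for Hspa1b. Capitals mark the motif GAANNTTC, an inverted pair of heat shock element units, searched on both strands.
Hspa1a: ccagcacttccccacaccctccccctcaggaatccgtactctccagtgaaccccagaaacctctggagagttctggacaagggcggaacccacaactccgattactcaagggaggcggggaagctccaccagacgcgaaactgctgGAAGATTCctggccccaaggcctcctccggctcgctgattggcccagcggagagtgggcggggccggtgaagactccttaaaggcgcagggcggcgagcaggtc
Hspa1b: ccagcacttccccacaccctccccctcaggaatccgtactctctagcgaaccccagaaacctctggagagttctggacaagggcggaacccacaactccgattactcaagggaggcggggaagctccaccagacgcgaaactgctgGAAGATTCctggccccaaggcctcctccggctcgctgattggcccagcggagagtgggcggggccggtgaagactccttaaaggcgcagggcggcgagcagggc
The sequences have the same base at 247 of 250 positions and hold the motif once each. Of all 32851 RefSeq promoter windows of the same table, 2199 hold it, or 6.69%. A match is a description of letters and says nothing of binding in these sections. The genes are known as near-identical copies, so how the deposited counting divided UMIs between them is uncertain. Their transcribed sequences were not compared here.

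Of 14 heat shock genes tested, 2 fell and 12 were not called, and the median log2 change was -0.16 beside -0.01 over all genes tested. Lower values in both old sections than in both young sections were seen for 8 of 14, beside 15.8% of all genes. Hspa8, the constitutive member and the most abundant, was at 2124 and 2271 CPM in the young sections and 2140.1 and 2290 CPM in the old sections, which overlap. Dnajb1, a cochaperone of Hspa1a, was at 75.1 and 101 CPM in the young sections, 60.9 and 55.4 in middle and 64.8 and 58.0 in the old sections, without overlap between young and old but not called (edgeR adjusted p = 0.99).

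Sgk1 (chr10:21882184-21999903, plus strand) encodes a kinase induced by glucocorticoids, the hormones of the stress response. It was at 159 CPM in young 1, 176 in young 2, 75.6 in middle 1, 97.9 in middle 2, 74.3 in old 1 and 87.4 in old 2. The young sections were above all others, and middle and old overlapped. From young to old it fell by 1.05 on the log2 scale (SE 0.15, edgeR adjusted p = 0.0150), and without young 1 the change was -1.12. The call was lost without old 1 (adjusted p = 0.282) and without old 2 (0.0918). Of 7 tested genes of glucocorticoid and NF-kB response, Sgk1 alone was called, and the median was -0.58 with all sections and -0.52 without young 1. Values were lower in both old sections than in both young sections for 6 of 7, beside 15.8% of all genes, including Nfkbia, the inhibitor of NF-kB, at 47.1 and 36.1 CPM in young and 25.7 and 27.7 CPM in old.

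**Figure D3:**
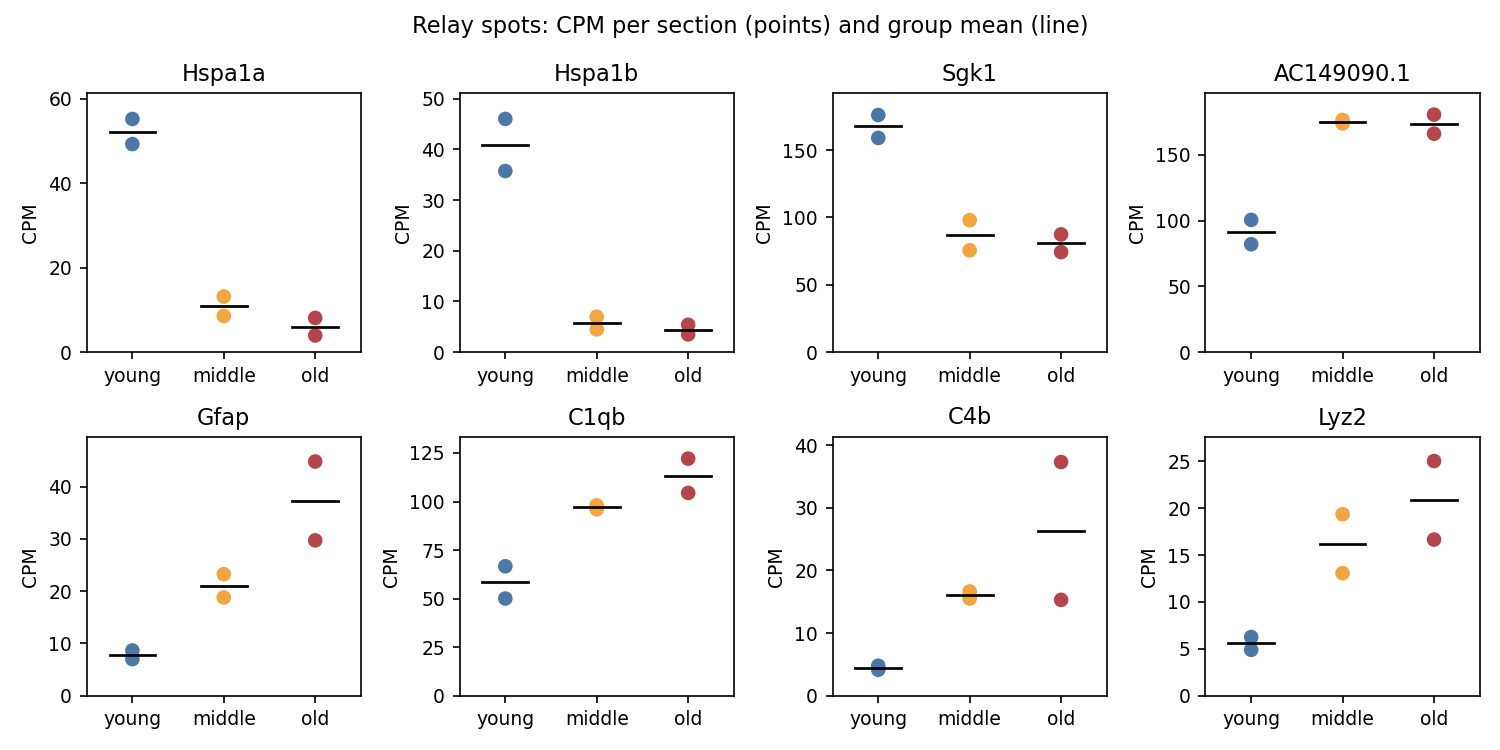
CPM in relay spots of each section (points) with the mean of each age group (line), for the 6 genes called between young and old and for C4b and Lyz2, which were not called. Axes start at 0; Hspa1a, Hspa1b and Sgk1 stand highest in the young sections.

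Gfap (chr11:102887336-102900912, minus strand), the intermediate filament of reactive and fibrous astrocytes, rose. It was at 6.99 CPM in young 1, 8.65 in young 2, 18.8 in middle 1, 23.2 in middle 2, 29.7 in old 1 and 44.8 in old 2. The 3 age groups did not overlap and followed the order of age. From young to old it rose by 2.25 on the log2 scale (SE 0.27, edgeR adjusted p = 0.00245), and by 2.10 without young 1. In spots with a score of at least 7, a choice made after seeing the data, the change was 1.88 with an adjusted p of 0.373, and with spots ranked on 5 other thalamic genes it was 1.05 and not called. It was also not called without old 2 (adjusted p = 0.0726). Even in old mice relay spots held less Gfap than the other spots, which were at 117 and 175 CPM.

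The other tested genes of reactive astrocytes and complement did not pass. C4b, complement component 4b, was at 4.79 and 4.14 CPM in the young sections, 15.5 and 16.6 in middle and 15.3 and 37.3 in the old sections, a log2 change from young to old of 2.55 (SE 0.44, edgeR adjusted p = 0.207). DESeq2 called it at an adjusted p of 0.00611. Serpina3n, a protease inhibitor, was at 7.36 and 3.76 CPM in young and 9.90 and 15.8 in old. The median over the 5 tested genes of this list was 1.20 and, without young 1, 1.76. Homeostatic astrocyte genes had a median of -0.17 over 9 genes, or 0.02 without young 1, with 0 called. Of the 9, 4 were lower in both old sections than in both young sections, beside 15.8% of all genes. Slc1a2, the main glutamate transporter, was at 1036 and 798 CPM in young and 829 and 802 CPM in old.

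C1qb (chr4:136880129-136886187, minus strand) encodes a chain of complement C1q, which microglia make in the brain. It was at 66.6 CPM in young 1, 50.02 in young 2, 98.0 in middle 1, 96.0 in middle 2, 104 in old 1 and 122 in old 2. Young lay below the other groups, and the log2 change from young to old was 0.96 (SE 0.16, edgeR adjusted p = 0.0464). Without young 1 it was 1.18 and called, but 13 of 22 alternatives lost the call, among them DESeq2 at an adjusted p of 0.0733 and slide as a term at 0.430. It was not called without middle 1 (0.117), middle 2 (0.111), old 1 (0.0928) or old 2 (0.799). Its partners were not called: C1qa was at 68.1 and 45.9 CPM in young and 76.5 and 86.1 in old, and C1qc at 51.2 and 52.3 in young and 72.9 and 67.2 in old. Of 9 resting microglia genes, 5 were higher in both old sections than in both young sections, beside 15.5% of all genes, and the median was 0.34, or 0.42 without young 1.

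Genes of activated phagocytes lay higher in old relay spots without passing the test. Of 12 tested, 0 were called with all sections and 11 were higher in both old sections, beside 15.5% of all genes in that direction. The median log2 change was 0.83, and 1.10 without young 1. Lyz2, a lysozyme of macrophages and microglia, was at 6.26 and 4.89 CPM in young, 13.1 and 19.4 in middle and 16.7 and 25.03 in old, a change of 1.89 (SE 0.33, edgeR adjusted p = 0.0644). Without young 1 it was called at an adjusted p of 0.0382. Tyrobp, the adaptor of the receptor Trem2, was at 55.9 and 33.1 CPM in young and 84.6 and 76.4 in old and was called without young 1 (0.0013) but not with it (0.99). In spots with a score of at least 7, with young 1 kept, edgeR called Tyrobp (adjusted p = 0.0060), Lyz2 (0.0233) and Lgals3bp (0.0136). Lgals3bp, which encodes a secreted glycoprotein, is in none of the lists, was named after its values were seen, and was at 10.3 and 7.15 CPM in young and 19.4 and 20.6 in old. Trem2 itself was at 15.5 and 15.4 CPM in young, 27.0 and 32.1 in middle and 21.2 and 32.9 in old. Genes of MHC class I and interferon response were also not called, with a median of 0.73 over 9 genes, 8 of them higher in both old sections, and a median of 0.62 without young 1. B2m, the shared light chain of class I molecules, was at 111 and 126 CPM in young and 129 and 179 in old.

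AC149090.1, a protein-coding gene on an unplaced scaffold, was at 100 and 82.0 CPM in young, 176 and 174 in middle and 180 and 166 in old. It rose by 0.92 on the log2 scale (SE 0.14, edgeR adjusted p = 0.0150) and by 1.08 without young 1, and 12 of 22 alternatives called it. It was not called without middle 1 (adjusted p = 0.0580), middle 2 (0.0665), old 1 (0.218) or old 2 (0.0945). Reads of a scaffold gene may come from a close copy elsewhere in the genome, which was not tested.

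No change of thalamic identity genes with age was detected. Of the 10 further thalamic genes, 0 were called, beside 0.0517% of all genes tested. The median log2 change was -0.10, or -0.12 without young 1. Tcf7l2 was at 582 and 562 CPM in young, 582 and 508 in middle and 572 and 453 in old. Ntng1 was at 453 and 527 CPM in young and 465 and 486 in old, and Slc17a6, the vesicular glutamate transporter of thalamic neurons, at 451 and 395 in young and 382 and 353 in old. Slc17a6 and Lef1 were lower in both old sections than in both young sections, which is 2 of 10 genes beside 15.8% of all genes. No list member passed the test in any of the 3 comparisons.

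Channels, receptors and release genes gave the same count, again beside 0.0517% of all genes tested. In burst and pacemaker channels 0 of 6 tested genes were called (median -0.05), in axonal and fast-spiking channels 0 of 10 (0.09), in glutamate receptors 0 of 11 (-0.08), in GABA-A receptors 0 of 7 (-0.16), in presynaptic release 0 of 13 (-0.06) and in neurofilaments 0 of 4 (0.09). Some of these genes differed widely between sections of 1 age. Kcnab3, a subunit of axonal potassium channels, was at 36.4 CPM in young 1 and 108 in young 2, 40.03 and 61.9 in middle, and 41.9 and 111 in the old sections. Scn4b, a sodium channel subunit that supports fast firing, was at 28.3 and 102 CPM in young, 69.8 and 79.7 in middle and 55.8 and 107 in old. The axonal list had a median of -0.21 without young 1 and 0.49 without young 2, so its sign followed which young section was kept. Gabra3, a GABA-A receptor subunit, went the other way, with 53.0 and 15.4 CPM in young, 33.9 and 15.1 in middle and 37.8 and 10.98 in old.

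**Figure D4:**
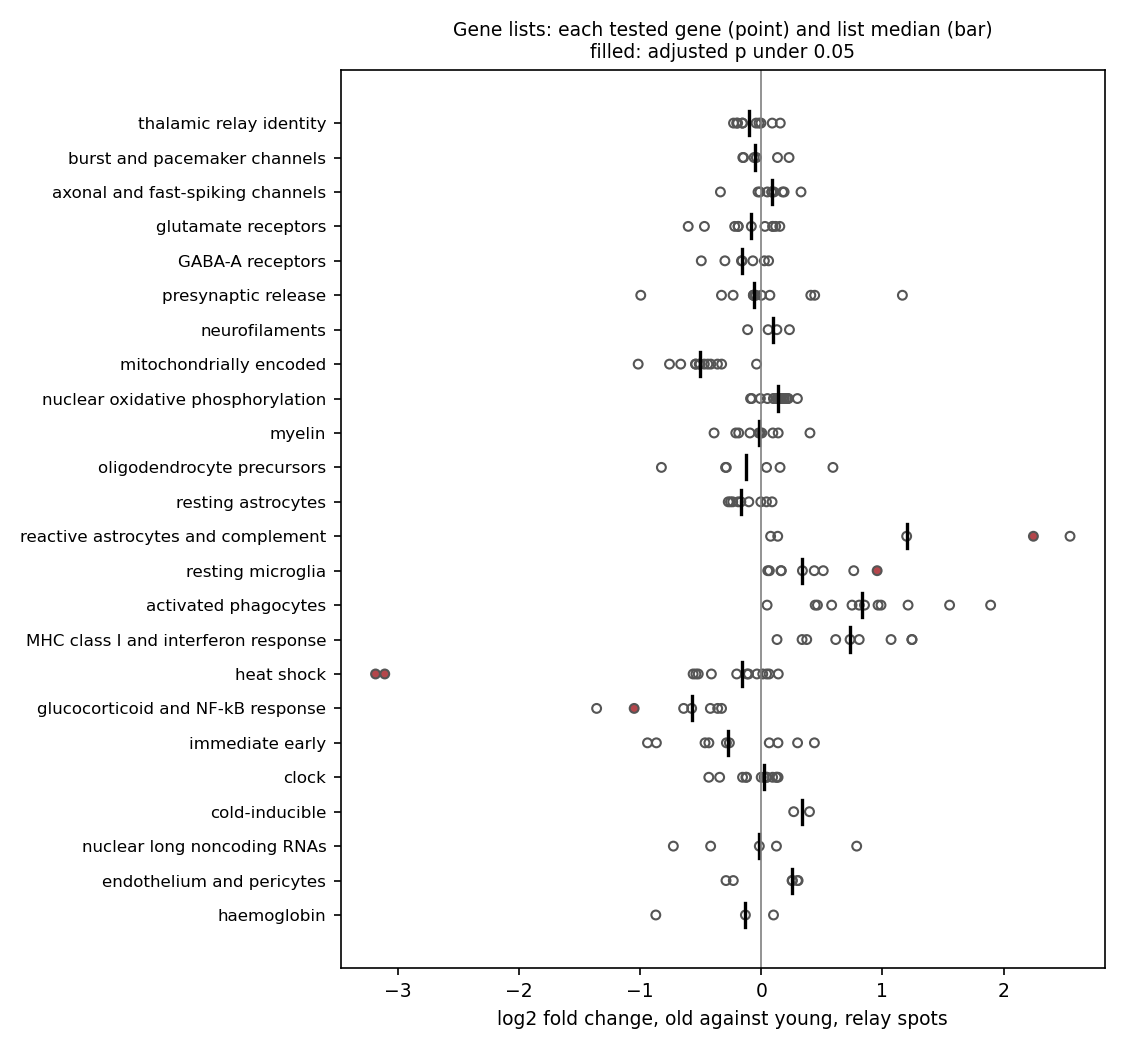
Log2 fold change from young to old in relay spots for each tested gene of 24 lists (points), with the list median (bar); filled points have an adjusted p under 0.05. Hspa1a and Hspa1b lie near -3, and Gfap, C1qb and Sgk1 are the other filled points.

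Mitochondrially encoded genes, the subunits of the respiratory chain that mitochondria make themselves, depended on young 1. Of 13 genes, 0 were called, 10 were lower in both old sections than in both young sections, beside 15.8% of all genes, and the median was -0.51. It was -0.12 without young 1 and -0.75 without young 2. mt-Co1 was at 42905 and 26644 CPM in young, 33102 and 27049 in middle and 26238 and 25835 in old. Young 1 was the highest section for this gene. Nuclear genes of the same complexes had a median of 0.14 over 18 genes with 0 called, and 0.04 without young 1. Myelin genes had a median of -0.02 over 10 genes. It was 0.13 without young 1 and -0.18 without young 2, so its sign followed which young section was kept. Mbp, myelin basic protein, was at 3802 and 3101 CPM in young, 3542 and 3856 in middle and 3070 and 3777 in old.

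Between young and middle mice, 5 genes changed, or 0.0431% of those tested, with 1 higher (0.00861%) and 4 lower (0.0344%). This comparison uses the same young sections as the one above, and 4 of its 5 genes were called there too. Hspa1b fell by 2.82 on the log2 scale (SE 0.28, edgeR adjusted p = 0.000671), Hspa1a by 2.25 (SE 0.26, edgeR adjusted p = 0.00178) and Sgk1 by 0.95 (SE 0.15, edgeR adjusted p = 0.0419). AC149090.1 rose by 0.94 (SE 0.14, edgeR adjusted p = 0.0195). Without young 1 these changes were -2.62, -2.17, -1.01 and 1.10. Without middle 1 no gene was called: the adjusted p was 0.0594 for Hspa1b, 0.129 for Hspa1a, 1.00 for Sgk1 and 0.570 for AC149090.1. Without middle 2, Sgk1 (0.154) and AC149090.1 (0.340) were not called, and Sgk1 was not called without old 2 (0.0533). With slide as a term, Hspa1a and AC149090.1 were not called (0.0798 for each), nor was Rasd2 (0.516). Rasd2 (chr8:75213944-75224113, plus strand), a small GTPase abundant in the striatum, was called here only. It was at 50.1 and 45.1 CPM in young, 19.6 and 23.2 in middle and 32.4 and 28.1 in old, and fell from young to middle by 1.15 (SE 0.19, edgeR adjusted p = 0.0484; without young 1, -1.07 and 0.0535). It lost the call without any 1 of young 1, middle 1 (1.00), middle 2 (0.463), old 1 (0.0565) and old 2 (0.0654).

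The genes next in rank between young and middle were Gfap, Ctss, C1qb and Lyz2, none of them called. Ctss, a lysosomal protease of microglia, was at 68.8 and 71.1 CPM in young, 127 and 102 in middle and 99.5 and 110 in old. The log2 changes from young to middle were 1.42 for Gfap, 0.71 for Ctss, 0.73 for C1qb and 1.53 for Lyz2, with edgeR adjusted p values of 0.294 to 0.400. Of the 9 resting microglia genes 8 were higher in both middle sections than in both young sections, beside 14.6% of all genes, with a median of 0.49. Activated phagocyte genes had a median of 0.77, with 10 of 12 higher in both sections. Neat1, a nuclear long noncoding RNA, was at 86.9 and 67.3 CPM in young, 114 and 151 in middle and 112 and 154 in old, with no overlap between young and the others but not called in either comparison.

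Between middle and old mice, 0 of 11614 genes were called by edgeR (0%) and 0 by DESeq2, and 212 had an unadjusted p under 0.05. Among genes with a mean of at least 10 CPM, those with the smallest unadjusted p and higher in old mice were Drg2, Gfap, Ifitm3, Serpini1 and Jund, and those lower were Pdcd7, Rras, Lars2, Marc2 and Rhbdd3. Each had an adjusted p of 1.00. Ifitm3, an interferon-induced membrane protein, was at 15.5 and 25.9 CPM in middle and 44.6 and 31.2 in old. Lars2, the mitochondrial leucyl-tRNA synthetase, was at 131 and 109 CPM in middle and 71.6 and 83.4 in old. Of the 13 mitochondrially encoded genes, 11 were lower in both old sections than in both middle sections, beside 14.7% of all genes, with a median of -0.26 and 0 called. Of 9 tested MHC class I and interferon genes, 6 were higher in both old sections, beside 15.2% of all genes, with a median of 0.46.

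Whether an age change was of another size in relay spots than in the other spots of the same sections was tested as an interaction over 17200 genes, with section as a block. It called 3 genes, or 0.0174%, with 1 more positive (0.00581%) and 2 more negative (0.0116%), and 537 had an unadjusted p under 0.05. DESeq2 called 0, and limma on the differences within sections called 4, none of them the same. Gfap rose by a larger factor in relay spots than in other spots. In relay spots it went from 6.96 and 8.69 CPM in young to 29.7 and 44.9 in old. In other spots it went from 80.6 and 76.7 to 117 and 175, which is a larger rise in mean CPM. The difference of the log2 changes was 1.36 (SE 0.22, edgeR adjusted p = 0.00184), and without young 1 it was 1.13 and not called (0.115). Hspa1a fell more in relay spots, from 54.9 and 49.5 CPM to 8.11 and 3.96, than in other spots, from 55.5 and 56.6 to 18.5 and 15.6. The difference was -1.40 (SE 0.28, edgeR adjusted p = 0.0293; without young 1, -1.35 and 0.0313). Without old 2 it was -1.09 and not called, and with slide as a term -1.44 and not called (0.0949). Apart from these genes no member of the 24 lists was called in this test. The MHC class I and interferon list had a median difference of 0.45 over 12 genes, beside 0.02 over all genes tested.

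Ndn (chr7:62346569-62350262, plus strand), an imprinted gene for the neuronal growth suppressor necdin, differed in the same test and was not called in the comparisons within relay spots. Relay spots held 132 CPM in young 1, 124 in young 2, 76.8 in middle 1, 63.9 in middle 2, 88.7 in old 1 and 72.3 in old 2. Other spots held 188, 177, 176, 193, 187 and 210 CPM in the same order. Relay spots of both young sections were above the other 4, and other spots showed no such step. The difference of the log2 changes from young to old was -0.78 (SE 0.15, edgeR adjusted p = 0.0293), and -0.83 without young 1. With slide as a term it was -0.57 and not called (0.927), and without old 2 it was -0.56 and not called.

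**Figure D5:**
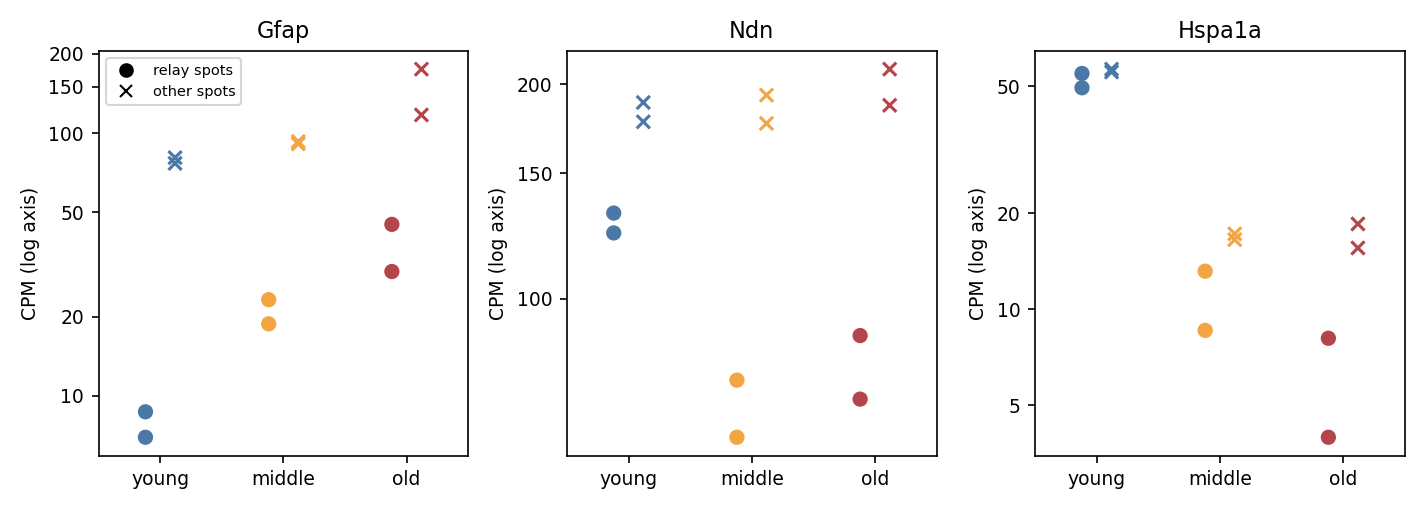
CPM on a log axis for the 3 genes whose change from young to old differed between relay spots (circles) and other spots (crosses); each point is a section and colour gives the age group. Ndn steps down after the young group in relay spots, and other spots stay between 176 and 210 CPM.

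The slides can be set beside these values. Both young sections, middle 1 and old 1 lay on slide 1, and middle 2 and old 2 on slide 2. On slide 1 alone, Hspa1a was at 55.2 and 49.3 CPM in young and 8.10 in old 1, Gfap at 6.99 and 8.65 in young and 29.7 in old 1, and Sgk1 at 159 and 176 in young and 74.3 in old 1. With slide as a term, 4 genes were called between young and old, and AC149090.1 (adjusted p = 0.0703) and C1qb were not.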

How the data were processed

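Spatial RNA sequencing (Visium) measured 6 sections. Each deposited matrix lists UMI counts by gene and spot, unnormalized; Space Ranger 1.3.1 wrote it, per the file headers, and mm10 is the build in the submitters' processing notes. The members and the 24 gene lists were chosen with earlier results of these data known. UMIs of the 120 relay spots, and of the other spots, were summed per section. edgeR 4.0.16 (TMM, filterByExpr, robust quasi-likelihood) fitted the sums of the 6 sections by age group, and the interaction had section as a block; the test is two-sided with a Benjamini-Hochberg threshold of 0.05. The pipeline was tested on simulated data. Alternatives were DESeq2 1.42.0, limma 3.58.1, other filters, scalings, spot choices, blocks and each section left out. Named genes were the 10 (old against young) or 5 called genes per direction with the largest change, no overlap and a mean of at least 10 CPM, the 5 of smallest unadjusted p where fewer than 3 were called, the leading genes of the lists and genes known from earlier results. The genes in the figures and those for which no list rank applies were named after their values were seen. Depth was 2152301 to 2894438 UMIs per sum. The p-values rest on the spread between sections of the same age, estimated over the 3 age groups together. The 2 sections of an age came from 2 brains, and in middle and old also from 2 slides. Gene positions are from GENCODE M21. Spot barcodes are grid positions: of the relay spots' barcodes 241 occurred in 1 section, 114 in 2, 45 in 3, 19 in 4 and 8 in 5. Tissue coordinates and images were not used here. Some members of the lists are not reported here.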

Additional observations from a re-analysis of the deposited data

Results flagged for a closer look

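For 3 genes the change from young to old differed between relay spots and the other spots of the same sections by the test of the difference itself (edgeR interaction, 17200 genes tested). The difference on the log2 scale was 1.36 for Gfap, -0.78 for Ndn and -1.40 for Hspa1a. Gfap in relay spots was higher at each later age and below the other spots in all 6 sections. Ndn in relay spots was higher in both young sections than in the 4 others. Hspa1a was at about the same CPM in relay and other spots of the young sections and lower in relay spots of the middle and old sections. DESeq2 gave adjusted p values of 0.392, 1.00 and 0.810 for them, so none was called by it. Groups of 2 sections were too small to look for single sections that stand out by a formal rule.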

How the results depend on the processing

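Counts of called genes changed with the processing. They are given below for old against young, middle against young and the difference between relay and other spots, whose main counts were 6, 5 and 3. With 240 spots per section the counts were 1, 1 and 1, and with no filter on low counts 22, 25 and 6. With at least 10 counts in every sum they were 3, 0 and 0. This filter removes Hspa1a and Hspa1b, which held fewer than 10 UMIs in the relay spots of old 2. Sgk1, AC149090.1 and Rasd2, also lost for middle against young, held more than that in every section. Quasi-likelihood without the robust option gave 3 for old against young and 2 for middle against young. Ranking on 5 other thalamic genes gave 3 for old against young and 5 for the difference, and leaving Rora out of the score gave 2 and 3 for those against young. For middle against young, 60 spots gave 2, only the 2 groups compared 2, slide as a term 2 and thinning to the smallest total 3. For the difference, DESeq2 gave 0, slide as a term 1 and spots with a score of at least 7, chosen after seeing the data, 5. The causes of these changes were not tested.

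Leaving out each section in turn gave 2 to 100 calls for old against young, 0 to 75 for middle against young, 0 to 0 for old against middle and 3 to 309 for the difference. The highest counts came without young 2, when young 1 stands for the group alone (100, 75 and 309). Without young 1 they were 12, 11 and 13, without middle 1 4, 0 and 7, without middle 2 4, 2 and 7, without old 1 4, 4 and 16, and without old 2 2, 3 and 3. A lone section is assumed to vary like the other groups. Among genes named without a call, Celf6 reversed: its difference between relay and other spots was 0.048 with spots ranked on 5 other thalamic genes and -1.21 in the main fit.

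Groups share replicate numbers, but the labels do not say that a number marks a shared animal, litter or day, and each comparison has only 2 pairs. Deviations of same-numbered sections from their group means correlated over genes at 0.165 for young and middle, 0.336 for young and old and 0.142 for middle and old. With a replicate block, 18, 17 and 1 genes were called for old against young, middle against young and old against middle, and 39 for the difference, and all calls of the main fit were among them. Depth limits the low genes: old relay spots held 8 to 18 UMIs of Hspa1a and Hspa1b per section.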

Other observations

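Within a section, relay spots with a higher score held more of the further thalamic genes. The Spearman correlation over the 120 spots of a section ran from 0.114 to 0.330, with the score and the summed genes sharing the same spot totals. For the cortex genes it was similar, at 0.032 to 0.363, so the rise was not particular to thalamic genes. For log10 UMIs per spot it ran from 0.012 to 0.332. It ran from -0.340 to -0.036 for astrocyte genes and from -0.274 to -0.036 for oligodendrocyte genes. These are descriptions over spots of 1 section, which are not replicates.

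Without young 1, 6 further genes were called between young and old, named here after their values were seen. Lyz2, Tyrobp and Cd63, a tetraspanin of lysosomes, were higher in old mice. Cd63 was at 102 CPM in young 1, 60.9 in young 2, 100.1 and 86.7 in middle and 106 and 119 in old. Egr1, an immediate early transcription factor, was at 44.2 CPM in young 1, 89.9 in young 2, 44.5 and 44.9 in middle and 50.4 and 48.7 in the old sections. Shank3, a postsynaptic scaffold, was at 17.7 and 95.5 CPM in the young sections and 39.1 to 44.5 CPM in the others, and Vgf, a neuropeptide precursor, at 93.5 and 224 CPM in the young sections and 101 to 140.1 CPM in the others. For Cd63, Egr1, Shank3 and Vgf young 1 lay within or beyond the range of the older sections on the side away from young 2.

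Npy, the neuropeptide Y precursor, was next in the test of the difference between relay and other spots and was not called. Relay spots held 20.6 and 39.1 CPM in young, 52.7 and 56.5 in middle and 47.7 and 67.6 in old, and the difference of the log2 changes from young to old was 1.23 (edgeR adjusted p = 0.723). Immediate early genes (10 tested), clock genes (13), oligodendrocyte precursor genes (6), cold-inducible genes (2), endothelial and pericyte genes (6) and haemoglobin genes (3) had 0 calls between young and old, with medians of -0.28, 0.02, -0.12, 0.33, 0.25 and -0.13. Haemoglobin levels differed between sections of 1 age: Hbb-bs was at 30.2 and 6.39 CPM in young and 30.6 and 3.07 CPM in old. The haemoglobin median was 0.88 without young 1 and -0.85 without young 2. Tac2, a tachykinin precursor of the habenula, was at 7.73 and 1.88 CPM in young, 0 and 1.55 in middle and 10.4 and 3.07 in old, and was not called.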
